A study of Mus musculus with 6 samples.

Results

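The 10 genes followed here belong to the chitinase-like and alternative activation programme and were measured in 6 RNA-seq libraries of sorted tumour stroma from mice. They were 3 chitinase-like genes (Chil1, Chil3, Chil4), the enzyme gene Arg1, the resistin-like gene Retnla, the lectin receptor genes Mrc1 and Mgl2, and 3 receptor genes for interleukins 4 and 13 (Il4ra, Il13ra1, Il13ra2). The list was made by name, as chitinase-like genes, genes that these interleukins induce in macrophages, and their receptors. All 10 were found among the 49671 genes of the tables, and all 10 passed the filter on low counts that left 15608 genes for testing. The genes were chosen by name, with their GFP against Tomato counts in these libraries already known, so the difference between the sorted fractions is given for these 10 genes as a description, with standard errors and without a test.

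Tumours were raised from FC1199, a line of mouse pancreatic cancer cells, placed in the pancreas of mice of C57BL/6J background aged 8 weeks. They grew for 4 weeks with no treatment, so the mice were 12 weeks old. All hosts carried Rosa-mTmG, a reporter that turns from red Tomato to green GFP where Cre recombinase has acted, together with a Cre gene under the Fabp4 promoter, which is known to be active in fat cells and in some macrophages and endothelium. Cells bearing Podoplanin were sorted into a GFP fraction, labelled as cancer-associated fibroblasts (CAFs) derived from stellate cells, and a Tomato fraction, labelled as CAFs of other origin, with 3 libraries of each. The total count per library was 33378377 to 42154933. The labels do not say whether replicates came from separate mice, so any p-value covers only the spread between these libraries.

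The sorted cells carried fibroblast RNA in both fractions, but not only that. The 9 fibroblast markers summed to 64085 to 72297 CPM (counts scaled to library size) in GFP and 30026 to 44214 in Tomato. The 18 macrophage markers summed to 160 to 260 CPM in GFP and 1158 to 2893 in Tomato, and all 18 were lower in GFP. The 9 mesothelial markers summed to 48.1 to 107 and 1255 to 1647 CPM, and the 6 epithelial markers to 54.4 to 72.2 and 457 to 549 CPM. The 8 endothelial markers summed to 229 to 366 CPM in GFP and 65.4 to 97.1 in Tomato. The part these cells play in the levels given here was not tested, and in such bulk samples fewer cells of a type and less RNA per cell cannot be told apart.

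Interleukins 4 and 13 bind receptors that hold the chain encoded by Il4ra, paired with the common gamma chain (Il2rg) or with the chain encoded by Il13ra1. JAK kinases on these chains then activate the transcription factor STAT6. In macrophages this is known to turn on Arg1, Retnla, Chil3, Mrc1 and Mgl2, a state called alternative activation. Il13ra2 encodes a receptor that binds interleukin 13 with high affinity and is best known as a decoy. The chitinase-like proteins keep the fold of chitinases and bind sugars but lack the catalytic activity.

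Chil3 and Chil4 are neighbours on mouse chromosome 3 and near copies of each other, which bears on how their reads can be told apart. By GENCODE M21 (GRCm38), Chil3 lies at chr3:106147554-106167564 and Chil4 at chr3:106201490-106219507, both on the minus strand, 33925 bases apart. Their coding sequences were identical at 1139 of 1194 aligned bases (95.4%), with a longest identical run of 136 bases. Of all stretches of 50 coding bases in Chil3, 20.7% occurred unchanged in Chil4, and of those of 100 bases 4.93% did. Reads from such stretches cannot be given to either gene, and the read length and the treatment of such reads are not given in the sources used here. Chil1 (chr1:134182176-134190181) was more distant, at 60.1% coding identity to Chil3 and 62.0% to Chil4, with no shared stretch of 50 bases. The 90-base coding windows below are the least alike of Chil3 and Chil4, bases 827 to 916 of each coding sequence, with the 12 differing bases in capitals. They show what a read needs to cover to be told apart.
Chil3: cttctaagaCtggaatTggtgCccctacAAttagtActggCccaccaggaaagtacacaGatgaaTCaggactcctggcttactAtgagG
Chil4: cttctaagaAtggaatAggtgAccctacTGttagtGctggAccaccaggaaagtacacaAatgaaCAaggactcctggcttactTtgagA
The most alike window, bases 362 to 451, was the same in both.
Chil3 and Chil4: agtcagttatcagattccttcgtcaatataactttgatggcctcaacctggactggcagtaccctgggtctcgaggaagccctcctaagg

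The promoters of these 2 genes were also alike. RefSeq windows of 300 bases (GRCm38.p6, 250 bases before to 50 after the start) were at hand for 9 of the 10 genes, and those of Chil3 and Chil4 were identical at 92.6% of 271 aligned bases. The palindrome that STAT proteins bind was searched with both spacings, TTCNNNGAA and TTCNNNNGAA, the latter being the form that STAT6 prefers. Each form is its own reverse complement, so a search of 1 strand covers both, and no window of the 9 genes held both forms. TTCNNNGAA was in 8.30% of 32851 promoter windows of all genes and in those of Chil3 and Chil4. TTCNNNNGAA was in 6.95% of all windows and in that of Retnla. A match describes letters only. The matches are shown in capitals within their surroundings, 5′ to 3′ on the gene's strand, because they mark what the upstream regions of the paired genes share.
Chil3, chr3:106167703-106167761, minus strand: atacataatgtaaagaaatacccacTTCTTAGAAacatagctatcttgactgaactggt
Chil4, chr3:106219646-106219704, minus strand: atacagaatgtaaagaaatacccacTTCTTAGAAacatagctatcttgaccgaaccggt
Retnla, chr16:48842439-48842498, plus strand: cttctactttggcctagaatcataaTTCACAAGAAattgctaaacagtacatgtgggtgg
The match began 172 bases before the RefSeq start of Chil3, 200 before that of Chil4 and 145 before that of Retnla. The distance depends on the annotated start, which for Chil4 and Retnla differs between RefSeq and GENCODE. Counted from the GENCODE starts, the match lay equally far upstream in Chil3 and Chil4.

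All 10 genes had a lower mean in GFP than in Tomato, from a small difference for Il13ra2 to the wide ones of Chil1 and Chil4. The transcriptome-wide fit (edgeR, adjusted p of 0.05 over 15608 genes) counted 7 of them as lower in GFP and 0 as higher, where it counted 15.7% of all genes as lower, 13.1% as higher and 28.9% in either direction. Over all genes 2456 were lower and 2049 higher, against 3851 and 1128 with scaling by library size alone and 1583 and 2781 with length and GC offsets. The median log2 fold change (GFP over Tomato) was -1.36 for the 10 genes and 0.00 for all genes tested. For 7 genes every Tomato library was above every GFP library, which held for 25.2% of all genes tested. These counts are no test of the 10 genes, which were chosen with this contrast known, and nothing is read from them. The count of 7 was 3 without GFP replicate 2, where 1719 of 16080 genes tested were lower.

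**Figure D1:**
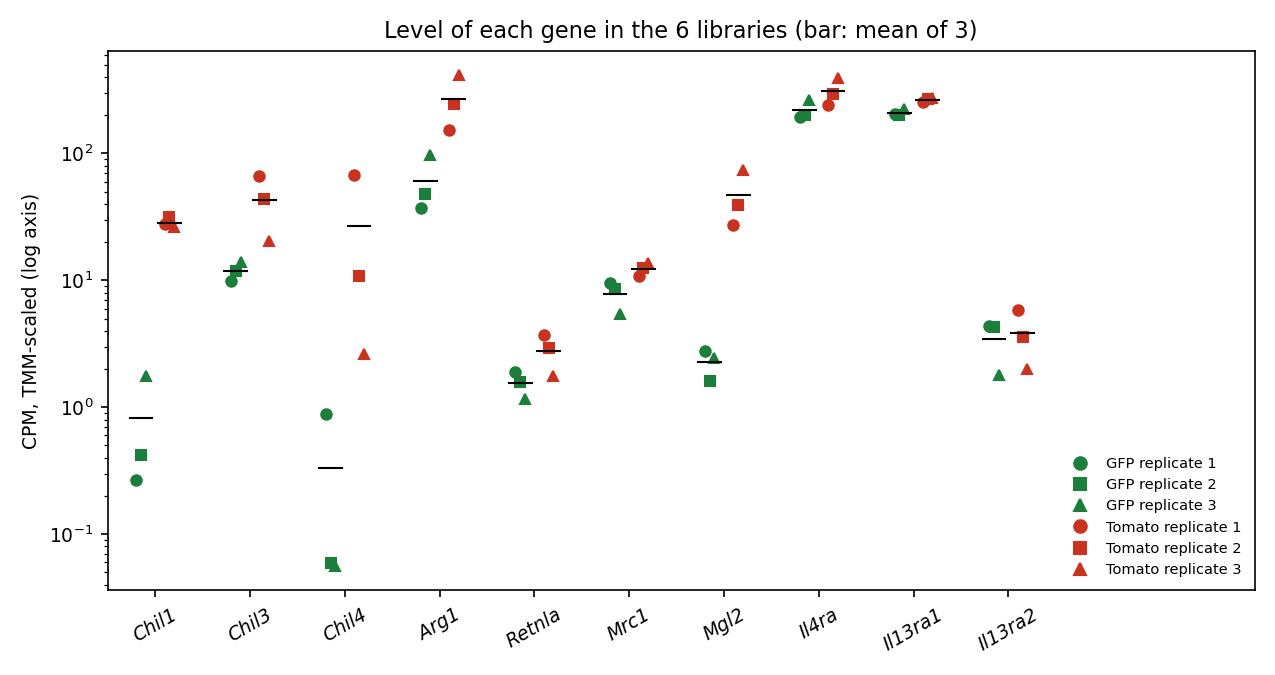
Level of each of the 10 genes in TMM-scaled CPM (vertical log axis) in the 3 GFP libraries (green) and 3 Tomato libraries (red), with bars at the mean of 3. Chil1, Chil4 and Mgl2 have the widest gaps between the fractions, and Chil4 the widest spread within Tomato, while the points for Il13ra2 lie together.

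Chil1 encodes a secreted chitinase-like protein (BRP-39 in mice, YKL-40 in humans) made by macrophages, neutrophils and several epithelia. It stood at 0.269, 0.418 and 1.78 CPM in GFP replicates 1, 2 and 3, resting on 10, 14 and 63 counts. In Tomato it stood at 27.9, 31.3 and 26.3 CPM. The fractions were far apart and the Tomato libraries close together, with a coefficient of variation of 8.91%. The log2 fold change was -5.11 ± 0.53 (SE, n = 3 against 3). It was -6.37 to -4.68 when each library was left out in turn, the lowest value without GFP replicate 3, the highest of the GFP libraries.

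Chil3 encodes Ym1, a protein secreted by alternatively activated macrophages, which is also made by neutrophil precursors. It had 9.94, 11.8 and 13.9 CPM in GFP and 66.0, 43.4 and 20.6 CPM in Tomato. All GFP libraries were below all Tomato libraries, but the Tomato libraries differed 3.21-fold among themselves. The log2 fold change was -1.87 ± 0.39 (SE). It was -1.44 without Tomato replicate 1 and -2.21 without Tomato replicate 3.

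Chil4 encodes Ym2, the near copy of Ym1, known from lung and stomach. It had 33, 2 and 2 counts in GFP, or 0.889, 0.0597 and 0.0564 CPM. In Tomato it had 2885, 419 and 96 counts, or 67.3, 10.8 and 2.61 CPM. A single library, Tomato replicate 1, held most of the Chil4 signal, and the Tomato replicates spanned 25.8-fold. The coefficient of variation among Tomato libraries was 131%, larger than that of 99.9% of the 13283 tested genes with at least 1 CPM in Tomato. The log2 fold change was -6.27 ± 1.59 (SE). It was -4.28 without Tomato replicate 1 and -8.78 without GFP replicate 1.

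The 2 near copies did not keep a fixed proportion. Chil4 made up 50.5% of Chil3 and Chil4 counts in Tomato replicate 1 (exact 95% interval 49.2 to 51.8%), 19.9% in replicate 2 (18.2 to 21.7%) and 11.3% in replicate 3 (9.21 to 13.6%). In GFP the share was 8.21% in replicate 1 (5.72 to 11.3%), 0.503% in replicate 2 (0.0609 to 1.80%) and 0.404% in replicate 3 (0.0490 to 1.45%). Intervals of Clopper and Pearson cover counting error only. In each fraction replicate 1 had the highest share, and the shares in the 3 Tomato libraries differed beyond counting error. In GFP replicates 2 and 3 Chil3 had 396 and 493 counts with 2 of Chil4. No count fell on Gm43709, an unprocessed pseudogene annotated between both genes, in any library.

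**Figure D2:**
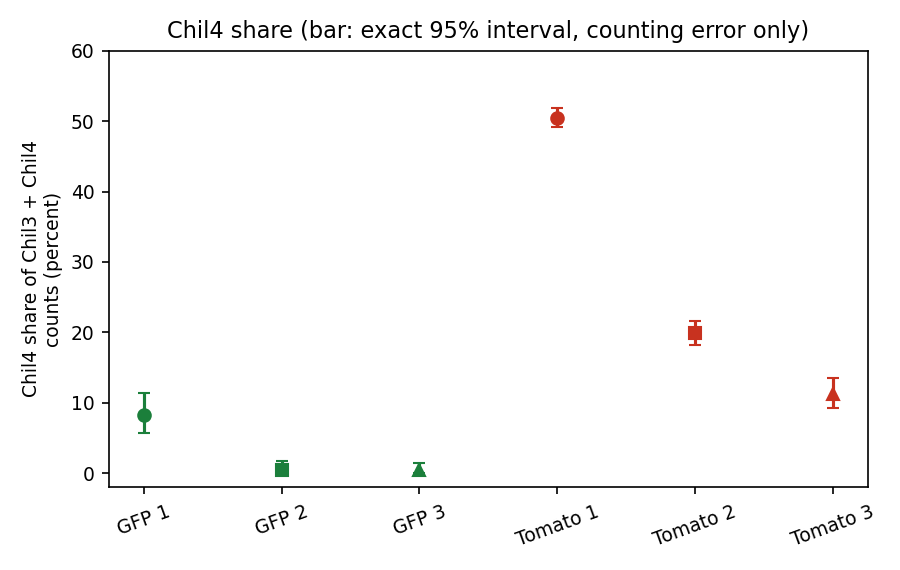
Chil4 counts as a percentage of Chil3 plus Chil4 counts (vertical axis) in each of the 6 libraries, with exact 95% intervals for counting error. Tomato replicate 1 stands at 50.5%, the other Tomato libraries at 19.9% and 11.3%, and 2 of the GFP libraries below 1%.

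Arg1, which encodes arginase 1, the enzyme that splits arginine into ornithine and urea, was the most abundant of the induced genes per length. It lies at chr10:24915221-24927484 on the minus strand. It had 36.9, 47.8 and 97.3 CPM in GFP and 153, 247 and 413 CPM in Tomato. The fractions did not overlap, and in both of them replicate 3 was highest and replicate 1 lowest. The log2 fold change was -2.16 ± 0.47 (SE). It was -1.73 without Tomato replicate 3 and -2.68 without GFP replicate 3.

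Retnla encodes RELM-alpha, a small secreted protein also called FIZZ1, and lies at chr16:48842551-48844461. It was low, at 1.91, 1.58 and 1.16 CPM in GFP and 3.71, 2.91 and 1.76 CPM in Tomato. The ranges overlapped, since the lowest Tomato library was below the highest GFP library. The log2 fold change was -0.85 ± 0.31 (SE). It was -0.42 with length and GC offsets in the fit and -1.10 without Tomato replicate 3.

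The 2 lectin receptor genes differed in size of change. Mgl2 (chr11:70130329-70137550), which encodes a galactose-binding receptor of macrophages and dendritic cells (CD301b), had 2.80, 1.61 and 2.42 CPM in GFP and 27.3, 39.4 and 73.5 CPM in Tomato. The gap between the fractions was wide, and the highest Tomato library was replicate 3. The log2 fold change was -4.35 ± 0.43 (SE), and it was between -4.63 and -3.87 when single libraries were left out. Its neighbour Clec10a, which encodes the paralogous receptor CD301a and shares 90.4% of aligned coding bases with Mgl2, was low, at 0.438 ± 0.137 and 1.34 ± 0.552 CPM (SD, n = 3). Of all stretches of 50 coding bases in Mgl2, 22.1% occurred unchanged in Clec10a, with a longest identical run of 183 bases, so the division of reads between this pair is uncertain too.

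Mrc1 (chr2:14229392-14332057) encodes the mannose receptor CD206, which takes up glycoproteins in macrophages and in lymphatic and liver sinusoidal endothelium. It had 9.61, 8.60 and 5.41 CPM in GFP and 10.9, 12.5 and 13.6 CPM in Tomato. The fractions did not overlap but lay close together, with a log2 fold change of -0.64 ± 0.21 (SE). It was -0.81 without GFP replicate 1 and -0.43 without GFP replicate 3. Of 8 endothelial markers, 6 were higher in GFP, among them Lyve1 and Prox1 of lymphatic endothelium. Stab2 was below 1 CPM in every library. The 8 markers summed to 366, 278 and 229 CPM in GFP replicates 1, 2 and 3, the order of Mrc1 there. In Tomato replicates 1, 2 and 3 they summed to 97.1, 93.4 and 65.4 CPM, the reverse of the order of Mrc1. Their part in the Mrc1 level was not tested.

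Of the receptor genes, Il4ra and Il13ra1 were abundant in both fractions and Il13ra2 was low. Il4ra (chr7:125552120-125579474) had 194, 201 and 262 CPM in GFP and 241, 296 and 390 CPM in Tomato. Its ranges overlapped, with a log2 fold change of -0.50 ± 0.19 (SE). It was -0.30 without Tomato replicate 3 and -0.66 without Tomato replicate 1. An antisense gene, Gm44876, lies within Il4ra and cannot be told apart in counts taken without strand; at most 2 counts per library were given to it.

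Il13ra1 (chrX:36112110-36171259) was the steadiest of the 10 genes. It had 204, 201 and 224 CPM in GFP and 253, 268 and 272 CPM in Tomato, with a coefficient of variation of 5.99% and 3.84%. The fractions did not overlap, and the log2 fold change was -0.33 ± 0.09 (SE). It was -0.23 with length and GC offsets in the fit and -0.50 with scaling by library size alone.

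Il13ra2 (chrX:147383476-147429192, minus strand) was low and alike in range. It had 4.33, 4.27 and 1.80 CPM in GFP and 5.86, 3.60 and 2.01 CPM in Tomato. The ranges overlapped and the log2 fold change was -0.14 ± 0.45 (SE). Without single libraries it was between -0.46 and 0.29, so its direction was not fixed. There were 43.2 to 136 counts of Il13ra1 for each count of Il13ra2, and in both fractions replicate 3 had the most.

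Per kilobase of merged exons, the order of levels was not the same in both fractions. In GFP, Il13ra1 (56.5 ± 3.39 CPM per kilobase, SD, n = 3) stood above Il4ra (36.5 ± 6.26) and Arg1 (27.2 ± 14.4), the last pair within their spread. Chil3 followed at 7.28 ± 1.21, and Retnla (2.59), Il13ra2 (1.52), Mrc1 (1.24) and Mgl2 (1.09) were lower. Chil1 (0.293) and Chil4 (0.119) were at the foot of the list. In Tomato, Arg1 (122 ± 59.1 CPM per kilobase) was at the head, with Il13ra1 (71.2 ± 2.73) within its spread and Il4ra at 51.5 ± 12.6. Chil3 (26.5 ± 13.9) and Mgl2 (22.3 ± 11.4) were within each other's spread, as were Chil1 (10.2 ± 0.906) and Chil4 (9.55 ± 12.5). Retnla (4.66), Mrc1 (1.93) and Il13ra2 (1.68) were lowest.

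The Tomato libraries split these genes in a way that the contrast between fractions does not show. Chil3, Chil4, Retnla and Il13ra2 were highest in Tomato replicate 1 and lowest in replicate 3, an order found for 26.5% of all genes tested. Arg1, Mgl2, Mrc1, Il4ra and Il13ra1 had the reverse order, found for 27.6% of all genes tested. Chil1 had neither. Summed macrophage markers were 1158, 1923 and 2893 CPM in Tomato replicates 1, 2 and 3, the order of Arg1 and Mgl2. Summed neutrophil markers were 27.9, 24.0 and 33.1 CPM. Of the 7 neutrophil markers tested, 3 (S100a8, Ngp and Retnlg) were highest in Tomato replicate 1 and 4 (S100a9, Csf3r, Cxcr2 and Mpo) in replicate 3. For 6 of the 10 genes the same replicate number was highest in GFP and in Tomato (Chil4, Retnla and Il13ra2 in replicate 1; Arg1, Il4ra and Il13ra1 in replicate 3), which held for 47.3% of all genes tested.

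**Figure D3:**
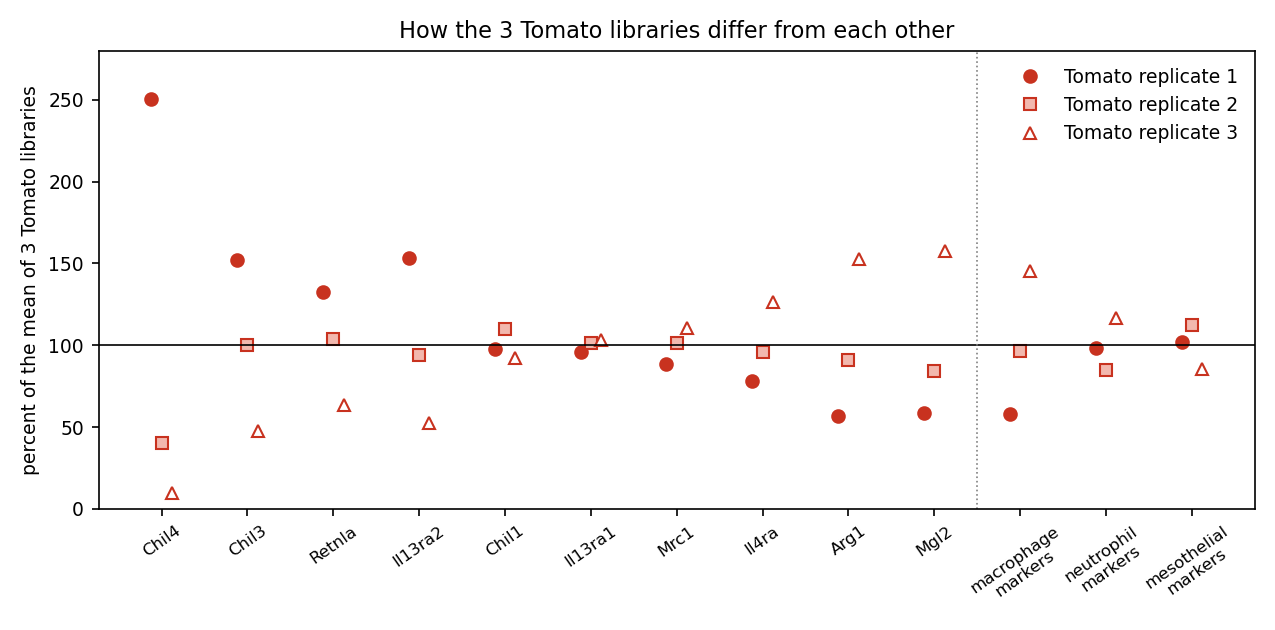
Level in each Tomato library as a percentage of the mean of the 3 (vertical axis) for the 10 genes and, right of the dotted line, for 3 summed marker lists. Replicate 1 (filled) is on top for Chil4, Chil3, Retnla and Il13ra2, and replicate 3 (open triangle) for Arg1, Mgl2, Il4ra, Mrc1, Il13ra1 and macrophage markers.

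Set beside macrophage markers in the same library, the genes differed in how steady they were. Arg1 had 132, 128 and 143 CPM per 1000 CPM of summed macrophage markers in the Tomato libraries, a narrow range. In GFP it had 230, 191 and 374, above every Tomato library. Mgl2 was also steady in Tomato, at 23.5, 20.5 and 25.4, and lower in GFP, at 17.4, 6.44 and 9.33. Chil3 was not steady in Tomato, at 57.0, 22.6 and 7.10, and had 61.9, 47.2 and 53.5 in GFP, so that the fractions overlapped. Chil4 overlapped as well, at 58.1, 5.61 and 0.901 in Tomato and 5.54, 0.238 and 0.217 in GFP. Mrc1 had 59.9, 34.3 and 20.8 in GFP and 9.39, 6.49 and 4.70 in Tomato, so that on this scale GFP was the higher fraction. Retnla likewise was higher in GFP on this scale, at 11.9, 6.32 and 4.45 against 3.20, 1.51 and 0.610. The receptor genes Il4ra and Il13ra1 ran from 801 to 1274 in GFP and from 94.1 to 218 in Tomato. Chil1 was not steady on this scale in Tomato (24.1, 16.3 and 9.09). Per 1000 CPM of summed mesothelial markers it had 18.8, 19.0 and 21.0 CPM in Tomato and 5.60, 5.41 and 16.5 in GFP, where it was uneven. Chil1 was even in Tomato in CPM alone, too. On the mesothelial scale Mgl2 and Chil4 overlapped between the fractions. Chil3, Arg1, Retnla, Mrc1, Il4ra, Il13ra1 and Il13ra2 were higher in GFP on that scale. These ratios take no account of cells other than those whose markers are summed, and they were not tested.

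**Figure D4:**
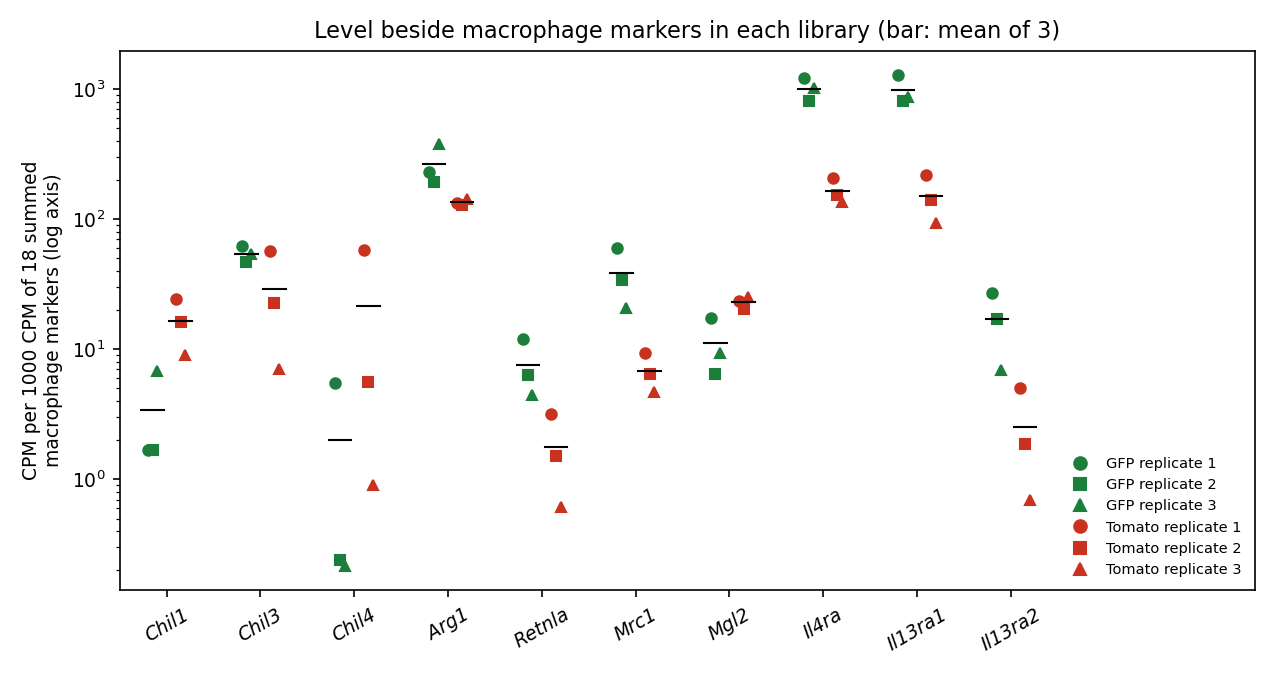
CPM of each gene per 1000 CPM of 18 summed macrophage markers (vertical log axis) in each library, with bars at the mean of 3. Arg1 and Mgl2 lie close together within Tomato, and Chil3 and Chil4 overlap between the fractions. Arg1, Mrc1, Retnla and the 3 receptor genes are higher in GFP on this scale.

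The genes whose log2 CPM followed each chitinase-like gene most closely over the 6 libraries differed between the 3. For Chil1 they were Rab27b, Pcdh15 and Anxa8 (Pearson correlation 0.999, 0.999 and 0.998). For Chil3 they were Tdo2 (0.990), Spock3 (0.982) and Ctnnal1 (0.982). For Chil4 they were Atf3 (0.993), Kcnip1 (0.991) and Zfp367 (0.989). These were the highest among 12610 protein-coding genes with at least 1 CPM, and the 6 points share the split into 2 fractions. They were picked on the same 6 values, so the correlations are no test. A correlation compares the shape of the levels on the log scale, not the size of the change. Over the 6 libraries Atf3 had 436 to 833 CPM and Zfp367 24.1 to 34.2, where Chil4 had 0.0564 to 67.3. Ctnnal1 had 9.55 to 14.0 CPM, where Chil3 had 9.94 to 66.0. Tdo2 shared the uneven Tomato levels of Chil3, at 10.4, 4.45 and 2.01 CPM, whereas Anxa8 shared the even ones of Chil1, at 46.1, 57.0 and 52.3 CPM.

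The interleukins themselves were at the limit of detection in both fractions. Il4 had 4 to 8 counts and Il13 at most 2 counts per library, and Il25 at most 4. A count of 0 in a library allows up to 0.0700 to 0.0895 CPM. Il33 and Tslp act upstream as well. Il33 was abundant and did not pass (852 ± 87.9 CPM in GFP and 943 ± 14.5 in Tomato, SD, n = 3). Its log2 fold change was -0.15 (edgeR adjusted p = 0.346). Tslp was low and did not pass (9.45 ± 3.10 and 8.10 ± 3.87 CPM, edgeR adjusted p = 0.691).

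Of the 11 genes of receptor partners and the signal chain, 1 was higher in GFP, 1 was lower and 9 did not pass, with a median log2 fold change of 0.19. Irs2, an adaptor that interleukin 4 receptors and insulin receptors share, was higher (327 ± 41.8 against 193 ± 39.8 CPM, log2 fold change 0.76 ± 0.16, edgeR adjusted p = 0.0106). Ptpn6, the phosphatase SHP-1 of blood cells, was lower (1.13 ± 0.391 against 15.3 ± 6.95 CPM, -3.76 ± 0.42, edgeR adjusted p = 0.00119). Stat6 had 140 ± 10.8 and 138 ± 3.01 CPM and a log2 fold change of 0.02 ± 0.09 (SE). The kinase genes Jak1 (0.23), Jak2 (0.19), Jak3 (0.22) and Tyk2 (0.05) did not pass, nor did Il2rg (-0.45), the feedback inhibitor genes Socs1 (0.19) and Cish (-0.41), or the adaptor gene Irs1 (0.67, edgeR adjusted p = 0.0501). Irs1 passed in 7 of 15 alternatives, among them RLE scaling (0.67, edgeR adjusted p = 0.0495), DESeq2 and the replicate block (0.69, edgeR adjusted p = 0.00833). Cish passed with the block (-0.44, edgeR adjusted p = 0.0149) and with the block and the length and GC offsets. Il2rg passed without Tomato replicate 1 (-0.66, edgeR adjusted p = 0.0344). Jak1 passed with the block and the length and GC offsets together (0.22, edgeR adjusted p = 0.0429).

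**Figure D5:**
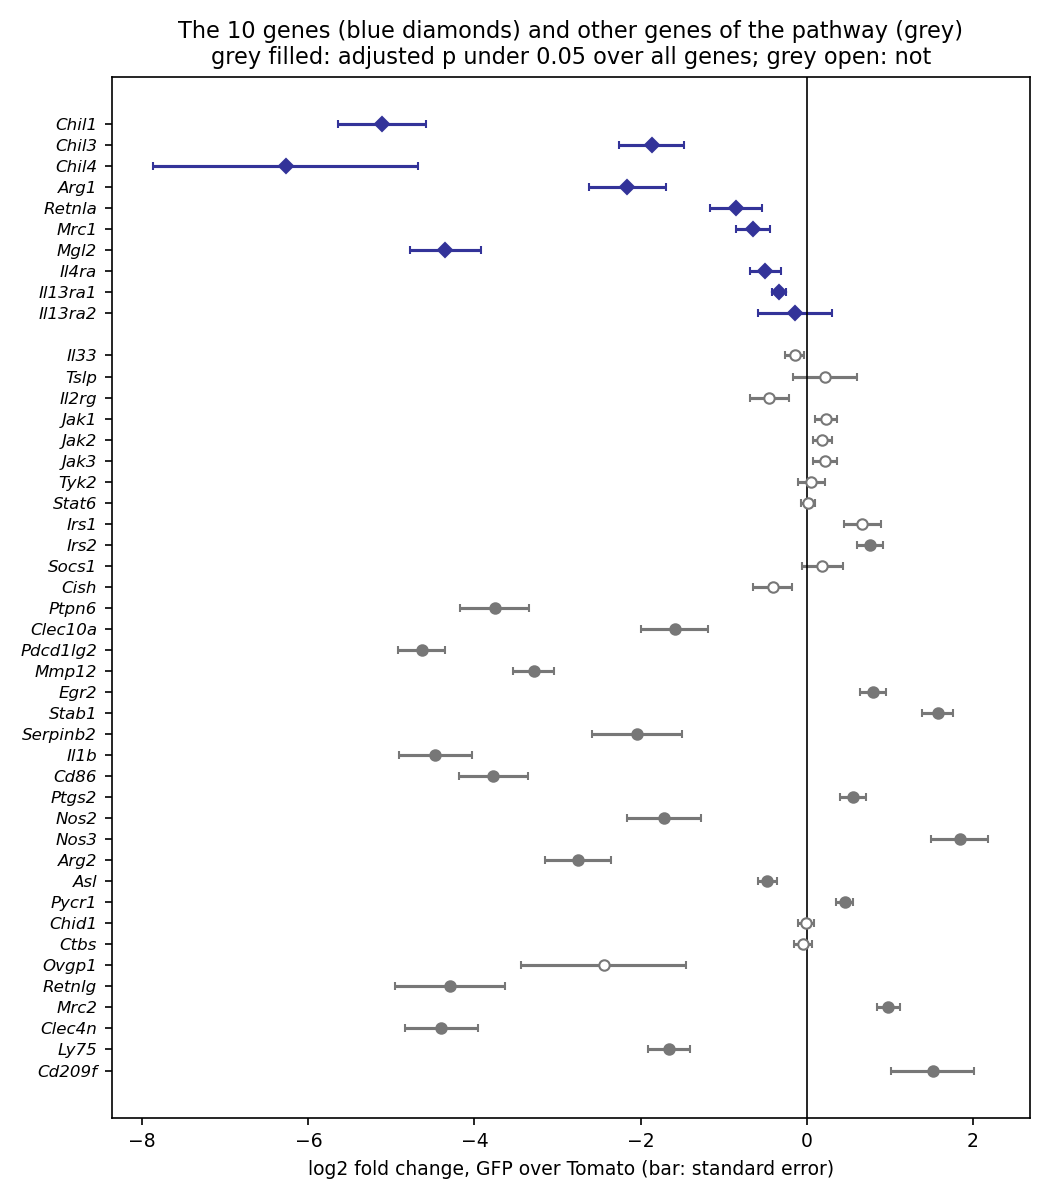
Log2 fold change, GFP over Tomato, with its standard error (horizontal axis), for the 10 genes (blue diamonds, no test) and for 35 other genes of the pathway lists (grey). Grey filled points passed an adjusted p of 0.05 over all genes. The receptor and kinase genes lie near 0, and among the genes plotted Chil4, Chil1, Pdcd1lg2, Il1b, Clec4n, Mgl2 and Retnlg lie furthest to the left.

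Other genes that interleukins 4 and 13 are known to induce in macrophages went both ways. Of 25 listed, 24 were in the tables and 23 were tested, of which 11 were lower in GFP, 3 higher and 9 not past the threshold (median log2 fold change -0.71). Pdcd1lg2, which encodes the checkpoint ligand PD-L2, was lower (0.123 ± 0.0169 against 3.12 ± 0.324 CPM, -4.63 ± 0.28, edgeR adjusted p = 3.8e-05), as was the elastase gene Mmp12 (-3.29). Stab1, a scavenger receptor gene of macrophages and sinusoidal and lymphatic endothelium, was higher (46.6 ± 12.4 against 15.7 ± 2.01 CPM, 1.57 ± 0.19, edgeR adjusted p = 0.00106). So was the transcription factor gene Egr2 (0.80, edgeR adjusted p = 0.00824). Egr2 had 408 ± 28.2 CPM in GFP and 235 ± 53.6 in Tomato (SD, n = 3). Cdh1, counted as lower, is also in the list of epithelial markers. Which cells carried the RNA of these genes was not tested. When replicate number was a block 5 were higher and 15 lower.

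Of 11 classical activation genes tested, 6 were lower and 1 higher (median -1.72). The cytokine gene Il1b (-4.47, edgeR adjusted p = 0.000853) and the costimulatory gene Cd86 (-3.77, edgeR adjusted p = 0.00105) were lower. The prostaglandin synthase gene Ptgs2 was higher (0.56, edgeR adjusted p = 0.0335), which did not hold without replicate 1 or 2 of GFP or replicate 2 or 3 of Tomato (adjusted p up to 0.126) or with library size alone. Of 10 genes that interleukin 13 induces in epithelium or stroma, 3 were tested, and Serpinb2, the inhibitor PAI-2, was lower (138 ± 45.8 against 571 ± 448 CPM, -2.04 ± 0.54, edgeR adjusted p = 0.0299). That call was lost without GFP replicate 1 (adjusted p = 0.0715) or 2 (0.0820) and with no filter (0.156). Retnlb and Itln1 had 0 counts in every library.

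Among 13 tested genes of arginine and polyamine metabolism, 3 were lower in GFP and 2 higher (median 0.24). Arg2, the mitochondrial arginase gene, was lower (0.486 ± 0.165 against 3.27 ± 1.34 CPM, -2.75 ± 0.40, edgeR adjusted p = 0.00200). The Arg2 call held in all 15 alternatives, but the size depended on processing. The log2 fold change of Arg2 ran from -3.03 to -1.06 over them, and from -3.03 to -2.43 without single libraries. Asl, which encodes the enzyme that releases arginine from argininosuccinate, was lower by less (-0.47, edgeR adjusted p = 0.0154), which did not hold without replicate 3 of GFP (0.0616) or replicate 2 of Tomato (0.0617) or with the length and GC offsets (-0.29, adjusted p = 0.0791). Nos3, the endothelial nitric oxide synthase gene, was higher at a low level (0.641 ± 0.0674 against 0.175 ± 0.0373 CPM, edgeR adjusted p = 0.00616), and so was the proline synthesis gene Pycr1 (0.45, edgeR adjusted p = 0.0116), which did not pass without Tomato replicate 2 (0.0575). When replicate number was a block 5 were higher and 5 lower. Nos2, whose product competes with arginase for arginine, had 8.95 to 11.8 counts of Arg1 per count in GFP and 9.60 to 16.4 in Tomato, ranges that overlap. Nos2 itself was lower in GFP (-1.72, edgeR adjusted p = 0.0293), a call lost in 4 of the 6 fits without a library and with no filter (adjusted p up to 0.149).

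The relatives of these genes in the same families were mostly silent or even. Of 7 other chitinase family genes, Chia1 and Chil6 had 0 counts in every library, and Chit1 and Chil5 at most 1. The lysosomal chitobiase gene Ctbs (21.3 ± 0.150 and 21.9 ± 2.56 CPM) and Chid1 (50.9 ± 2.88 and 51.0 ± 4.27 CPM) did not pass (log2 fold changes -0.04 and 0.00). Ovgp1, which encodes oviductin, did not pass (-2.44 ± 0.99, edgeR adjusted p = 0.104). It had 11, 44 and 196 counts in Tomato replicates 1, 2 and 3, the reverse of the order of Chil3 and Chil4, and passed without Tomato replicate 1 (-2.99, edgeR adjusted p = 0.0119). Of the resistin-like genes only Retnlg could be tested, and it was lower (0.0646 ± 0.0396 against 1.35 ± 0.904 CPM, -4.30 ± 0.67, edgeR adjusted p = 0.00282). A filter of 1 CPM in 3 libraries removed it.

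Of 7 tested genes of the mannose receptor family and other C-type lectins, 4 were lower in GFP and 2 higher (median -1.59). Mrc2, the collagen uptake receptor of fibroblasts and a close relative of Mrc1, was higher (328 ± 39.5 against 166 ± 24.3 CPM, 0.98 ± 0.14, edgeR adjusted p = 0.00165). Clec4n, which encodes Dectin-2 of myeloid cells, was lower (4.21 ± 0.946 against 89.0 ± 47.5 CPM, -4.40 ± 0.44, edgeR adjusted p = 0.000860), as was Ly75 (-1.66, edgeR adjusted p = 0.00276), the dendritic cell receptor DEC-205. Cd209f passed as higher below 1 CPM (1.51, edgeR adjusted p = 0.0495), a call lost in every fit without a library (adjusted p up to 0.169), with DESeq2, with library size alone and with the block. Over the 71 pathway genes tested in all, 25 were lower in GFP and 9 higher, against 15.7% and 13.1% of all genes, and 17 were higher when replicate number was a block.

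Some markers of cell types that answer to or make these interleukins were close to absent, and they are named here for that reason. Below 1 CPM in every library were 4 of 7 eosinophil, 6 of 7 mast cell and basophil and 4 of 7 dendritic cell markers. The lists of neutrophils (3 of 10) and lymphoid cells (2 of 6) had fewer. The rest reached 1 CPM in at least 1 library. The eosinophil peroxidase gene Epx and the mast cell receptor gene Fcer1a had 0 counts in every library. The markers Prg2, Ccr3 and Il5ra of eosinophils and Ms4a2, Cpa3 and Tpsb2 of mast cells and basophils were below 1 CPM in every library. So were Il17rb and Ptgdr2 of lymphoid cells of this response, and Ly6g and Elane of neutrophils. The same held for Flt3, Xcr1, Clec9a and Cd209a of dendritic cells. Their lists were not empty: eosinophil markers summed to 3.49 to 4.48 CPM in GFP and 9.17 to 20.04 in Tomato, with 3 of 4 tested lower in GFP. Mast cell and basophil markers summed to 1.97 to 2.15 and 2.73 to 4.15 CPM, and neither of the 2 tested passed. Neutrophil markers summed to 2.42 to 4.23 and 24.0 to 33.1 CPM, with 6 of 7 tested lower. Dendritic cell markers summed to 26.9 to 28.4 and 43.6 to 58.5 CPM, with 2 of 3 tested lower, and lymphoid markers to 102 to 131 and 90.3 to 103 CPM, with 2 of 4 lower and 1 higher. The part of any of these cells in the levels of the 10 genes was not tested.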

How the data were processed

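RNA was sequenced from 3 GFP and 3 Tomato libraries built from 150 ng of total RNA, per the labels' protocols. The authors deposited unnormalized read counts for each gene, for both strands together and for either strand, per the file headers. Trim Galore 0.4.3, STAR 2.5.2b and GRCm38 are named in the submitters' processing notes, without roles. The annotation release was not given in the sources used here. Of 49671 genes, 49412 matched GENCODE M21.

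The column for both strands was used. The fractions were contrasted with edgeR 4.0.16 (quasi-likelihood test, robust, two-sided; R 4.3.3), with TMM scaling, filterByExpr, no block and Benjamini-Hochberg adjustment over 15608 genes. CPM are TMM-scaled; a level per kilobase divides them by merged exon length. SE came from the fold change and F. Data were simulated with the same variation between libraries for every gene (biological coefficient of variation 0.158). There, 85.4% of genes changed by 1 and all changed by 3 on the log2 scale were recovered among 15417 genes. Genes that varied more between libraries, Chil4 among them, are not covered by these shares. Genes under 1 CPM rest on few reads. The 10 genes and the lists were chosen with earlier results of these data known. The text names the 10 genes, all interleukin and signal chain genes, per other list up to 2 genes higher and 2 lower with the smallest adjusted p, and per chitinase-like gene the 3 closest in log2(CPM + 0.5). Nos2, Clec10a, Cdh1, Chid1, Ctbs, Ovgp1, neutrophil markers, Lyve1, Prox1, Stab2 and silent family members were named after their values were seen. In the marker lists, genes that define a type were named where they were at 0 or below 1 CPM in every library.

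Libraries of equal number deviated together across genes (correlations 0.403, 0.108 and 0.347), each above the limit of 0.1, a sign of pairing that rests on the counts, since no label states one. Reported values come from the fit without a block, and the block is an alternative. Alternatives were RLE and library size scaling, 2 other filters, DESeq2 1.42.0, the block, 1 strand column, leaving out each library and, added after the data were seen, offsets for transcript length and GC content, alone and with the block.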

Additional observations from a re-analysis of the deposited data

How the results depend on the processing

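Over 15 alternatives the log2 fold change stayed below 0 for 9 of the 10 genes, and that of Il13ra2 was above 0 in 4 of them. The count of these genes lower in GFP was 7, and 3 to 7 when a library was left out. It was lowest without GFP replicate 2, where 1719 of 16080 genes tested were lower. Over the other alternatives it was 5, with no filter (2642 of 28422 genes lower), to 9, with library size alone (3851 of 15608). None was counted as higher in any fit. Nothing is read from these counts, since the 10 genes were chosen with this contrast known. Leaving out a library also lowers the number of samples.

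Over all genes, 2049 were higher and 2456 lower. Library size alone gave 1128 and 3851 and moved the median of all log2 fold changes from 0.00 to -0.16. The replicate block gave 3137 higher. The length and GC correction gave 1583 lower, with a median of 0.12, and with the replicate block 4031 higher. Without single libraries 833 to 2392 genes were higher and 1380 to 2793 lower. Of the pathway genes 9 were higher, and 17 with the replicate block, 21 with the block and the length and GC correction, and 6 to 14 without single libraries. Among 35 pathway genes refitted one by one, the block changed the calls of Irs1, Cish and Cd209f. With no filter Serpinb2 and Nos2 lost their call; the cause was not tested.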
